A study of Homo sapiens with 18 samples.

Results

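In A673 cells, an established Ewing sarcoma cell line, 637 of 2145 EWSR1-FLI1 peaks (29.7%, 95% Wilson interval 27.8 to 31.7%) had neither a RING1B peak nor a reproducible H2Aub1 region; they are called RING1B-free below. The members were chosen by the deposited peak lists themselves: an EWSR1-FLI1 peak was taken when it shared no base with a peak of RING1B replicate 1 or replicate 2, and none with an H2Aub1 region found in both H2Aub1 replicates. Together they covered 593 kb of the hg19 genome. Of 18 samples profiled by chromatin immunoprecipitation and sequencing (ChIP-seq), 5 with a peak list were used: RING1B (2 replicates), H2Aub1 (2 replicates) and EWSR1-FLI1 (1 sample), all from untreated A673 cells. Nothing in the labels says that the replicates were separate cultures. The antibodies were MBL D139-3 for RING1B, Cell Signalling D27C4 for H2Aub1 and Abcam ab15289 for EWSR1-FLI1. The other 13 samples, which include the RING1B knockdown and its control, were not used here.

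EWSR1-FLI1 is the fusion oncoprotein of Ewing sarcoma, in which the amino-terminal part of EWSR1 is joined to the DNA-binding ETS domain of FLI1. It binds repeats of the ETS core motif, where it can open chromatin and activate enhancers, and it also binds single ETS sites, where repression has been described. RING1B is the ubiquitin ligase subunit of Polycomb repressive complex 1 and places a single ubiquitin on histone H2A, the mark abbreviated H2Aub1. Polycomb repressive complex 1 is best known for silencing developmental genes, and RING1B has also been described at active enhancers in cancer cells. Peaks of the fusion without RING1B are the sites where the lists give the fusion but no RING1B peak.

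The EWSR1-FLI1 peaks fell into 6 classes by their overlaps. Without RING1B there were 694 peaks, and 57 of them were set aside because they touched a reproducible H2Aub1 region, leaving the 637. RING1B of replicate 1 only was found at 277 peaks and of replicate 2 only at 282, and 505 of these lay outside reproducible H2Aub1. RING1B of both replicates was found at 892 peaks, 814 of them outside reproducible H2Aub1. The 505 and the 814 passed the same H2Aub1 criterion as the RING1B-free peaks and served as the comparison. A RING1B-free peak lacked a called RING1B peak, and every list ended at a score close to 50, so weaker RING1B signal cannot be seen in these lists. They hold no read counts, and the depth behind each call is unknown. Since there was 1 EWSR1-FLI1 sample, no value below has a replicate error for the fusion. All intervals are 95% intervals over peaks and cover counting error only; neighbouring peaks are not independent.

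With respect to RING1B, the overlap rule left few borderline peaks. Contact with H2Aub1 is given further below. When an overlap of 50% of the shorter region was required, 667 peaks passed the rule. Of the 1451 EWSR1-FLI1 peaks with RING1B, the median overlap was 967 bp, or 98.6% of the EWSR1-FLI1 peak. The smallest overlap was 325 bp, at chr5:139089089-139089961 (score 53.17), followed by 403, 409, 452 and 473 bp, and 8 peaks shared under 50% of their width. On the other side of the rule, 8 RING1B-free peaks had a RING1B peak less than 1 kb away. The smallest gap was 174 bp, at chrX:35525449-35526594, where the EWSR1-FLI1 peak scored 337.39 and the neighbouring RING1B peak, of replicate 1 only, scored 72.92 in its own list. The next gaps were 332 bp at chr8:98097662-98098417, 389 bp at chr10:36923424-36924546, 645 bp at chr13:60257247-60258260 and 662 bp at chr14:37555905-37556816. At the chromosome 8 and chromosome 10 sites the RING1B peak was present in both replicates and lay under another EWSR1-FLI1 peak, 381 and 470 bp from the RING1B-free one.

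RING1B-free peaks were mostly the weaker EWSR1-FLI1 peaks. The score is the authors' own, on a scale not given in the sources used here, and serves to rank peaks within the list. RING1B-free peaks ran from 50.04 to 543.05, with a median of 68.53 (66.21 to 70.59) and 25th and 75th percentiles of 57.27 and 90.21. The median was 84.48 for peaks with RING1B in 1 replicate and 169.79 for peaks with RING1B in both. Scores below 60 were held by 207 RING1B-free peaks (32.5%), 107 of the 505 (21.2%) and 41 of the 814 (5.04%), with 17.8% over all EWSR1-FLI1 peaks. The difference between RING1B-free peaks and the 814 was 27.5 percentage points (23.5 to 31.4). Scores above 200 were held by 26 RING1B-free peaks (4.08%), 42 of the 505 (8.32%) and 361 of the 814 (44.3%), with 21.8% over all EWSR1-FLI1 peaks. The ranges of the classes overlapped, and peaks with RING1B in 1 replicate lay between the others.

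**Figure D1:**
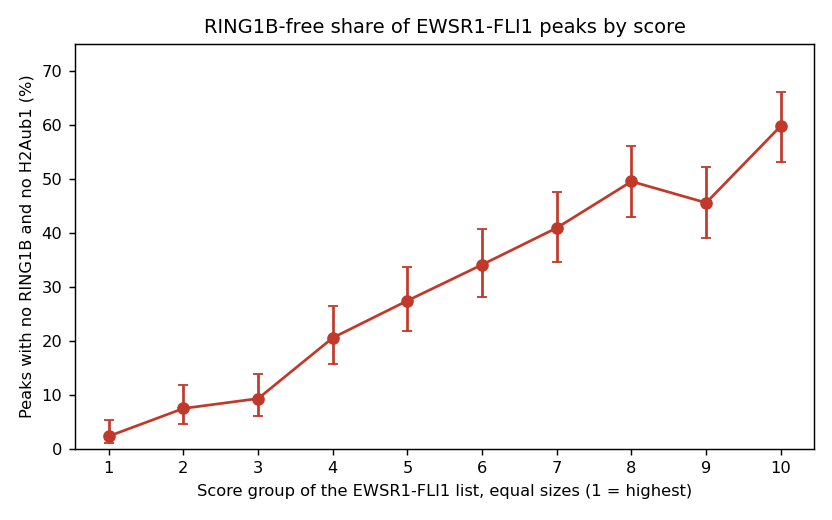
Percentage of EWSR1-FLI1 peaks with no RING1B peak and no reproducible H2Aub1 region, in 10 score groups of equal size from the highest scores (1) to the lowest (10); points are shares of 214 or 215 peaks and bars are 95% Wilson intervals. The share goes from 2.33% in the highest group to 59.8% in the lowest.

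With the EWSR1-FLI1 list in 10 score groups of equal size, RING1B-free peaks made up 5 of 215 (2.33%) at the top, 59 of 215 (27.4%) in the fifth group and 128 of 214 (59.8%) at the bottom. The share was higher in each successive group except the ninth, where it was 45.6% after 49.5% in the eighth, with overlapping intervals. In quartiles of the list there were 31, 113, 216 and 277 RING1B-free peaks from the highest to the lowest scores. The best RING1B-free peak ranked 91, and all 90 peaks above it had RING1B in both replicates. So the RING1B-free class held some strong fusion sites but none of the strongest. The 57 peaks without RING1B that were set aside for reproducible H2Aub1 had a median score of 74.1, near that of the 637.

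The 10 highest-scoring RING1B-free peaks lay on 9 chromosomes. First was chr12:124609695-124610593, 899 bp wide, with a score of 543.05 and its nearest RING1B peak 337 kb away. Next came chr19:42387879-42388940 (score 475.58), which had another EWSR1-FLI1 peak 2989 bp away but no RING1B peak within 135 kb. The peak at chr15:34394001-34395031 (442.89) had its next EWSR1-FLI1 peak 3.65 Mb away and RING1B 107 kb away. A narrow peak of 687 bp at chr8:29627778-29628464 scored 406.36 and lay 114 kb from RING1B. The peak at chr9:131650203-131650943 (385.54) touched an H2Aub1 peak of replicate 1 and had RING1B 5226 bp away. The peak with the 174 bp gap on the X chromosome ranked sixth among them and also had an H2Aub1 peak 668 bp away. Another, chr11:17182788-17183742 (325.04), lay 68 bp from a reproducible H2Aub1 region, the smallest such gap among RING1B-free peaks (shared with chr14:37303981-37305053), with RING1B 12.8 kb away. The remaining 3 were chr6:152896647-152898461 (314.49, 304 kb from RING1B), chr12:64915655-64916700 (307.99, 116 kb) and chr7:83839192-83840086 (305.47, 2244 bp). Strong RING1B-free sites thus ranged from close neighbours of RING1B to sites with no RING1B peak for over 300 kb.

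RING1B-free peaks were also narrower. Their widths ran from 442 to 3846 bp with a median of 923 bp (911 to 933), against 972 bp for peaks with RING1B in 1 replicate and 1058 bp (1047 to 1072) for peaks with RING1B in both. Widths under 800 bp were found for 138 RING1B-free peaks (21.7%), 63 of the 505 (12.5%) and 46 of the 814 (5.65%), with 12.2% over all EWSR1-FLI1 peaks. The share was 16.0 percentage points (12.5 to 19.7) above that of the 814 and 9.19 points (4.81 to 13.4) above that of the 505. Width goes with score in this list, so the classes were also compared within score quartiles. From the highest to the lowest quartile the median widths of RING1B-free peaks were 1007, 976, 927.5 and 887 bp, and those of peaks with RING1B in both replicates 1160, 1029, 969 and 958 bp. RING1B-free peaks had the smaller median width in each quartile, though within the top quartile their median score was also lower, at 266.97 against 356.74. In the lowest quartile, where the median scores were 56.11 and 58.91, the share under 800 bp was 29.2% against 20.3%, with an interval of the difference that included 0 (-3.09 to 18.6 points).

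**Figure D2:**
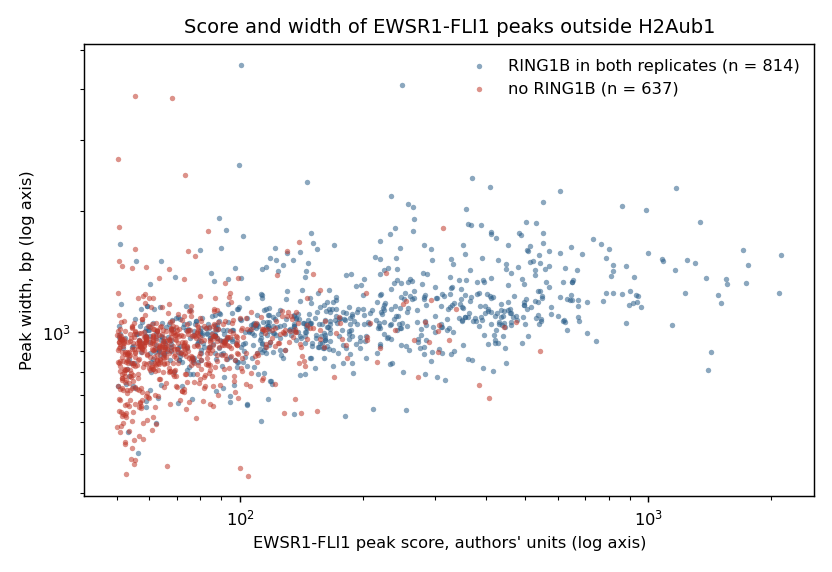
EWSR1-FLI1 peak score in the authors' units (log axis) against peak width in bp (log axis); each point is 1 peak, red for the 637 without RING1B and blue for the 814 with RING1B in both replicates, all outside reproducible H2Aub1. Red points crowd at scores below 100, and the few red points over 2000 bp wide all come from 1 stretch of chromosome 11.

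The widest RING1B-free peaks shared a position. The 4 of them over 2000 bp wide all lay between 30342260 and 46627305 on chromosome 11, a stretch bounded by them and singled out after its values were seen. They were chr11:33431082-33434927 (3846 bp, score 55.3), chr11:30342260-30346058 (3799 bp, 68.29), chr11:46624624-46627305 (2682 bp, 50.16) and chr11:37467221-37469680 (2460 bp, 73.16). The stretch held 6 RING1B-free peaks with a median width of 2571 bp, and 16 other EWSR1-FLI1 peaks with a median of 2066 bp. Elsewhere the 631 RING1B-free peaks had a median of 922 bp and a maximum of 1826 bp. Large width in this stretch was thus shared by other EWSR1-FLI1 peaks and was not limited to RING1B-free peaks. The 16 other peaks were not split by RING1B.

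Distances to RING1B are given as a description with nothing read from them, since the RING1B lists chose the members. For the comparison classes, distances are to the nearest RING1B peak that does not touch the EWSR1-FLI1 peak. The median distance was 165 kb (141 to 184) for RING1B-free peaks, 101 kb for peaks with RING1B in 1 replicate and 62.9 kb (55 to 71.7) for peaks with RING1B in both. By the list of RING1B replicate 1 alone the median of peaks without RING1B was 285 kb, and with the highest-scoring 50% of each list 312 kb. A RING1B peak within 10 kb was found for 64 RING1B-free peaks (10.0%, 7.95 to 12.6%), 61 of the 505 (12.1%) and 153 of the 814 (18.8%), with 14.5% over all EWSR1-FLI1 peaks. Within 50 kb the numbers were 158 RING1B-free peaks (24.8%), 166 of the 505 (32.9%) and 364 of the 814 (44.7%), with 35.5% over all. No RING1B peak lay within 1 Mb of 38 RING1B-free peaks (5.97%), 21 of the 505 (4.16%) and 21 of the 814 (2.58%), with 3.96% over all. In score quartiles from highest to lowest, the median distance of RING1B-free peaks was 201, 179, 175 and 145 kb, and that of peaks with RING1B in both replicates 55.3, 71.6, 75.8 and 73.6 kb.

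The 5 RING1B-free peaks farthest from RING1B were between 2.31 and 3.62 Mb from it. The first, chr5:180649933-180650808 (score 141.66), was also 14.1 Mb from the next EWSR1-FLI1 peak, the largest such distance among RING1B-free peaks. The others were chr16:78688960-78689808 (3.35 Mb), chr18:29255148-29256148 (2.82 Mb), chr13:67590116-67591029 (2.57 Mb) and chr6:164281343-164282299 (2.31 Mb). The last of these had a reproducible H2Aub1 region 158 bp away, but its score of 51.42 was close to the lowest in the list. Among the 64 RING1B-free peaks within 10 kb of RING1B, the nearest RING1B peak was found in both replicates for 20, in replicate 1 only for 24 and in replicate 2 only for 20. The 20 with RING1B in both replicates are 31.3% of the 64, beside 32.5% of all merged RING1B peaks. The same share was 38.6% for the 814 and 62.3% for the 505. The nearest RING1B peak touched another EWSR1-FLI1 peak in 27 of the 64 (42.2%), beside 29.7% of all merged RING1B peaks, 51.0% for the 814 and 60.7% for the 505.

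**Figure D3:**
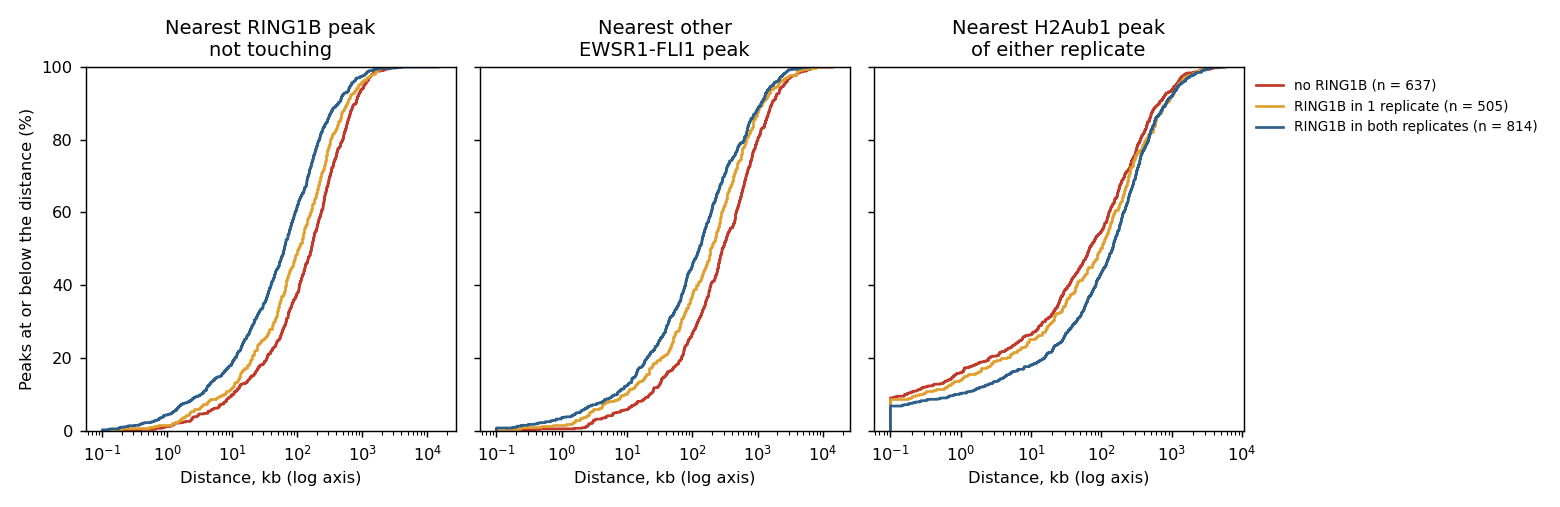
Cumulative percentage of EWSR1-FLI1 peaks (vertical axis) by distance in kb (log axis) to the nearest RING1B peak not touching them, the nearest other EWSR1-FLI1 peak and the nearest H2Aub1 peak of either replicate, for peaks without RING1B (red, 637), with RING1B in 1 replicate (yellow, 505) and in both (blue, 814); distances under 0.1 kb, overlaps included, are drawn at 0.1 kb. The red curve is lowest in the first and second panels and highest in the third: RING1B-free peaks were farther from other fusion peaks than both other classes, and nearer to H2Aub1 than peaks with RING1B in both replicates.

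RING1B-free peaks were more isolated from other EWSR1-FLI1 peaks. This measure comes from the EWSR1-FLI1 list alone and was not used in the choice. The median distance to the next EWSR1-FLI1 peak was 285 kb (255 to 347) for RING1B-free peaks, 188 kb with RING1B in 1 replicate and 126 kb (104 to 145) with RING1B in both. Another EWSR1-FLI1 peak within 50 kb was found for 109 RING1B-free peaks (17.1%, 14.4 to 20.2%), 124 of the 505 (24.6%) and 258 of the 814 (31.7%), with 24.9% over all EWSR1-FLI1 peaks. The difference from peaks with RING1B in both replicates was -14.6 percentage points (Newcombe interval -18.8 to -10.2), and from peaks with RING1B in 1 replicate -7.44 points (-12.2 to -2.72). From the highest to the lowest score quartile the shares were 9.68, 16.8, 16.7 and 18.4% for RING1B-free peaks and 32.9, 29.9, 31.7 and 30.4% for peaks with RING1B in both replicates. The interval of the difference lay below 0 in each quartile, and the upper bound nearest 0 was -1.22 points, in the lowest quartile.

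The class of the near neighbour, where there was one, is given as a description. The lists that chose the members also set the class of each neighbour, so nothing is read from these shares. Of the 109 with another EWSR1-FLI1 peak within 50 kb, the nearest one was itself RING1B-free in 35 (32.1%, 24.1 to 41.4%). It carried RING1B of at least 1 replicate in 70 (64.2%). RING1B-free peaks made up 29.7% of the whole list, but only 109 of the 534 peaks with a neighbour within 50 kb. The neighbour was RING1B-free for 25 of the 124 peaks with RING1B in 1 replicate (20.2%) and for 45 of the 258 with RING1B in both (17.4%). The difference from the latter was 14.7 percentage points (5.16 to 24.8); pairs of neighbours can enter from both sides, which the interval does not allow for. The neighbour had the higher score for 81 of the 109 (74.3%) and for 90 of the 258 (34.9%). This follows in part from the scores of the classes, with medians of 65.11 for the 109 and 185.5 for the 258. Joined in steps of up to 100 kb, 579 RING1B-free peaks (90.9%) stood alone, 26 pairs formed and 2 runs of 3. The runs were chr16:30798207-30887180 (scores 51.92, 65.47 and 99.02) and chr19:42364117-42388940 (50.69, 78.87 and 475.58), with no other EWSR1-FLI1 peak between them.

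RING1B-free peaks lay nearer to H2Aub1 than peaks with RING1B in both replicates did, while the difference from peaks with RING1B in 1 replicate was within counting error. All 3 classes had been cleared of reproducible H2Aub1 by the same criterion, so the comparison concerns H2Aub1 nearby and H2Aub1 peaks of a single replicate. Because the H2Aub1 lists took part in choosing the classes, these distances follow in part from the rule and are given as values. The nearest H2Aub1 peak of either replicate was at a median of 67.3 kb (54.1 to 91.5) from RING1B-free peaks, 95.7 kb (72.8 to 123) with RING1B in 1 replicate and 144 kb (121 to 163) with RING1B in both. An H2Aub1 peak within 50 kb or touching was found for 286 RING1B-free peaks (44.9%, 41.1 to 48.8%), 210 of the 505 (41.6%) and 256 of the 814 (31.4%). The RING1B-free share was 13.4 percentage points (8.42 to 18.4) above that of the 814 and 3.31 points (-2.47 to 9.05) above that of the 505. The share was 43.9% over all EWSR1-FLI1 peaks and 38.4% over the 1956 outside reproducible H2Aub1. Within 1 kb the numbers were 102 RING1B-free peaks (16.0%), 71 of the 505 (14.1%) and 84 of the 814 (10.3%), with 20.8% over all and 13.1% over the 1956. The difference from the 814 was 5.69 points (2.2 to 9.29) and from the 505 1.95 points (-2.28 to 6.07).

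Values for each H2Aub1 replicate and each score quartile also follow in part from the rule and are no added support. They are given first for RING1B-free peaks and then for peaks with RING1B in both replicates. With replicate 1 the shares within 50 kb were 42.1% and 29.7%, and with the shorter list of replicate 2 they were 24.5% and 16.3%, differences of 12.3 (7.37 to 17.3) and 8.15 points (3.98 to 12.4). By score quartile the difference was 35.8 points (17.7 to 50.8) in the highest, where 20 of 31 RING1B-free peaks (64.5%) and 115 of 401 peaks with RING1B in both replicates (28.7%) had H2Aub1 within 50 kb. It was 13.0 points (1.92 to 23.9) in the second quartile. In the third it was 7.4 points (-3.52 to 17.8) and in the lowest 12.2 points (-0.797 to 23.4), and both intervals included 0. Whether the difference differs between quartiles was not tested. From the highest to the lowest quartile the shares were 64.5, 46.9, 44.0 and 42.6% for RING1B-free peaks. For peaks with RING1B in 1 replicate they were 47.3, 35.8, 43.0 and 44%, so in the lowest quartile that class had the higher share.

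Direct contact could be compared only for H2Aub1 peaks outside the reproducible regions, since the rule removed peaks touching those regions. For such contact the difference between RING1B-free peaks and the 814 was within counting error. An H2Aub1 peak outside the reproducible regions touched 51 RING1B-free peaks (8.01%, 6.14 to 10.4%), 38 of the 505 (7.52%) and 46 of the 814 (5.65%). The share was 6.9% over the 1956 peaks outside reproducible H2Aub1 and 15.1% over all EWSR1-FLI1 peaks. The difference between RING1B-free peaks and the 814 was 2.36 points, with an interval from -0.24 to 5.1 that included 0. Among the 51, the H2Aub1 peak was of replicate 1 only at 46, of replicate 2 only at 4 and of both at 1. A reproducible H2Aub1 region within 50 kb was found for 108 RING1B-free peaks (17.0%), 78 of the 505 (15.4%) and 96 of the 814 (11.8%), with 14.4% over the 1956 and 19.7% over all. That was 5.16 points (1.54 to 8.88) above the 814 and 1.51 points (-2.85 to 5.75) above the 505. Within 10 kb the shares were 5.81% for RING1B-free peaks and 6.02% for the 814, a difference of -0.21 points (-2.63 to 2.33), with 6.39% over the 1956 and 11.2% over all.

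**Figure D4:**
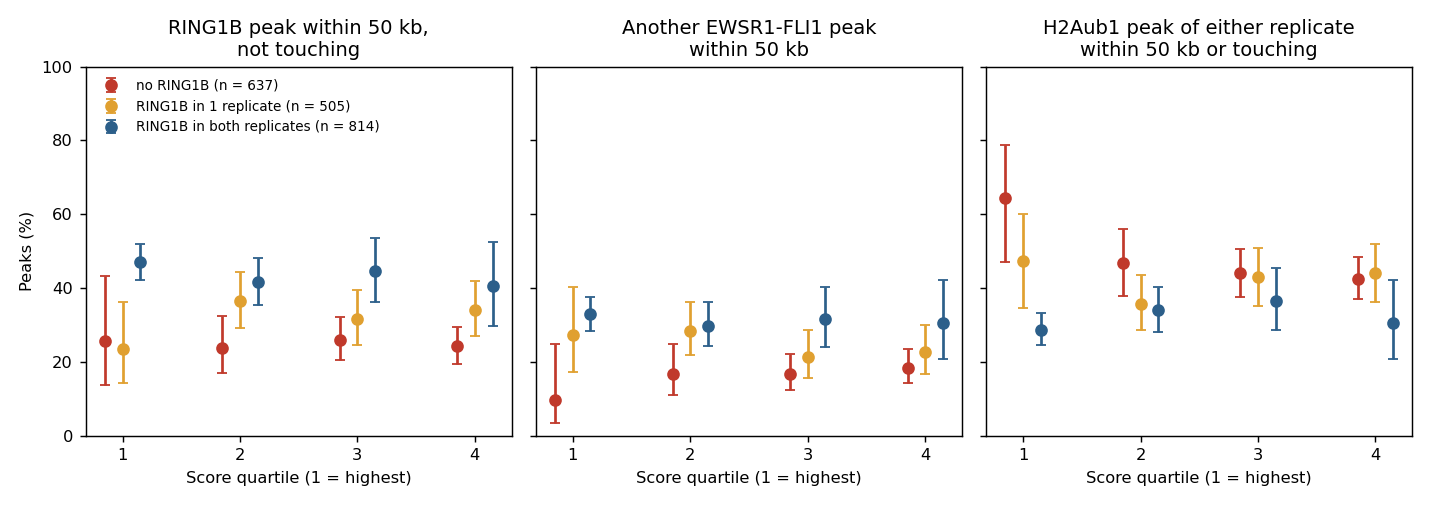
Percentage of EWSR1-FLI1 peaks (vertical axis) with a RING1B peak, another EWSR1-FLI1 peak or an H2Aub1 peak within 50 kb, by score quartile of the EWSR1-FLI1 list (1 = highest), for peaks without RING1B (red), with RING1B in 1 replicate (yellow) and in both (blue); bars are 95% Wilson intervals. In every quartile the red points lie below the blue ones in the first and second panels and above them in the third, where the bars overlap in quartiles 2, 3 and 4.

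Position near chromosome ends was close to that of the whole list. The outer 10 Mb of chromosome arms held 91 RING1B-free peaks (14.3%, 11.8 to 17.2%), 65 of the 505 (12.9%) and 83 of the 814 (10.2%), with 13% over all EWSR1-FLI1 peaks. The difference from the 814 was 4.09 points (0.71 to 7.58), but 1.75 points (-1.15 to 4.72) without RING1B replicate 1, and its interval included 0 in all 4 score quartiles. With peaks near chromosome ends left out, the share with H2Aub1 within 50 kb was 41.8% for RING1B-free peaks and 30.4% for the 814. That was a difference of 11.4 points (6.07 to 16.7). For another EWSR1-FLI1 peak within 50 kb the difference was -15.8 points (-20.3 to -11.1). Whether position near chromosome ends bears on these differences was not tested. By chromosome, RING1B-free peaks made up between 20.8% (22 of 106 on chromosome 7) and 43.3% (13 of 30 on chromosome 19, 27.4 to 60.8%) of EWSR1-FLI1 peaks. Chromosome X had 20 of 49 (40.8%), chromosome 16 had 22 of 54 (40.7%) and chromosome 8 had 32 of 142 (22.5%). As a description over 23 chromosomes, the share was higher on chromosomes with more protein-coding genes per Mb (Pearson r = 0.55, Spearman rho = 0.47), and without chromosome 19 r was 0.35 and rho 0.40; each chromosome adds few peaks.

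**Figure D5:**
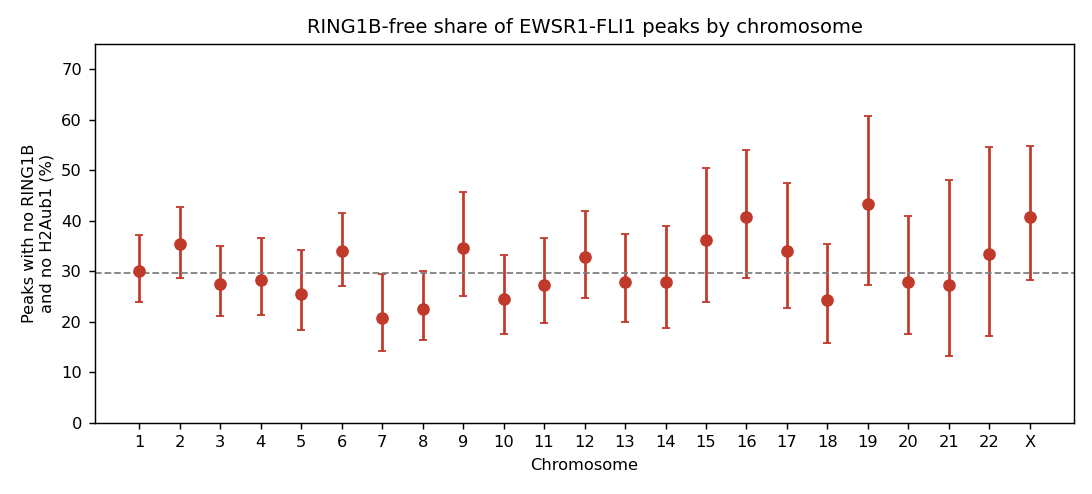
Percentage of the EWSR1-FLI1 peaks of each chromosome (horizontal axis) that had no RING1B and no reproducible H2Aub1; bars are 95% Wilson intervals and the dashed line is the share over all chromosomes, 29.7%. Most intervals include the line, with chromosome 19 highest at 43.3% and chromosome 7 lowest at 20.8%.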

How the data were processed

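Deposited BED peak lists of 5 samples were used, 1 per sample (2145 EWSR1-FLI1, 2573 and 3945 RING1B, 26423 and 10268 H2Aub1 peaks). For these samples Bowtie and hg19 stand in the submitters' processing notes; mm9 also stands there for RING1B and H2Aub1, with no role stated. Column 5 holds the authors' score for each peak, deposited without its scale, and was used only to rank peaks within a list. Peak names begin with MACS, with version, settings and background sample not given in the sources used here. An overlap was at least 1 bp. Reproducible H2Aub1 regions were merged peaks with both replicates. Distances are gaps between nearest edges, and coordinates are 1-based hg19. Chromosome lengths came from R's GenomeInfoDb, and gene counts per chromosome from a RefSeq table of GRCh38. Shares have 95% Wilson intervals, their differences Newcombe intervals, and medians order-statistic intervals (Python 3.11.15, scipy 1.17.1, pandas 2.3.3). No p-value was computed. The overlap and distance code was tested on simulated peaks. The members, the classes and the peaks named (10 highest scores, 5 widest, 5 nearest to and farthest from RING1B, 5 nearest to reproducible H2Aub1) were chosen with earlier results of these data known. No genome or annotation of the files' build was used, so regions carry no gene names or sequences. Alternatives tried were other overlap minimums, stricter score limits, merged or omitted H2Aub1 criteria and leaving out each replicate.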

Additional observations from a re-analysis of the deposited data

How the results depend on the processing

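Keeping the highest-scoring 50% of each list gave 305 peaks that passed the rule in the shortened lists. Their median score was 129.04, and 6.56% had RING1B within 10 kb. The higher median follows from dropping low scores. Many of the 305 touch weaker peaks that were cut: by the full lists, the upper score quartiles held 31 and 113 RING1B-free peaks. With the full lists, RING1B lay within 5 and 20 kb of 5.97% and 15.1% of RING1B-free peaks. Leaving out 1 RING1B or H2Aub1 replicate gave 592 to 896 peaks that passed the reduced rule. Median scores were between 68.68 and 72.815, and 7.37 to 10.1% had RING1B within 10 kb. Where a RING1B replicate was left out, some of these peaks carry RING1B of the omitted list. With a replicate block, in which RING1B and H2Aub1 lists of the same number were used together, 819 and 909 peaks passed the rule. Some of these, too, carry RING1B of the other replicate. The labels do not say that equal numbers mark shared cells. The comparisons of shares with peaks bound by RING1B were repeated with settings chosen after seeing the data. The difference in H2Aub1 within 50 kb was 7.4 points in the third score quartile and 12.2 in the lowest, with intervals that included 0, and 35.8 in the highest. It was 8.15 to 12.3 points with 1 replicate left out, and 3.31 points, with an interval that included 0, against peaks with RING1B in 1 replicate. The difference in other EWSR1-FLI1 peaks within 50 kb ranged from -23.2 to -7.44 points over 8 settings, with an interval below 0 in each. Of 149 alternative values, 110 were graded as unchanged and 39 were not. The grading was loose for the number of peaks, where 896 and 909 against 637 were graded as unchanged. The share of the list without RING1B replicate 1, 41.8% against 29.7%, was graded as moved. Searches for the ETS repeat motif and for gene starts were not run, since no genome or annotation of the files' build was used. Depth limits every count here, because a RING1B peak below the lists' lowest scores cannot be told apart from none.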
